A study of Mus musculus with 8 samples.

Results

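The pyruvate dehydrogenase complex, its 4 kinases and its 2 phosphatases were examined as 9 genes: Pdha1, Pdhb and Dlat for the complex, Pdk1, Pdk2, Pdk3 and Pdk4 for the kinases, and Pdp1 and Pdp2 for the phosphatases. The members were every region of a deposited chromatin accessibility table whose annotated gene was one of these 9. This gave 80 of 489637 regions and 9 of 27552 annotated genes. Across the members, no difference in accessibility between iMSBmal1KO and vehicle muscle passed the test, in single regions, in promoters or over whole genes.

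Pyruvate dehydrogenase is a mitochondrial complex that turns pyruvate from glycolysis into acetyl-CoA, and so sets how much carbohydrate a muscle fibre oxidises. The kinases phosphorylate its alpha subunit and switch the complex off, and the phosphatases remove the phosphate and switch it on again. In skeletal muscle Pdk4 is the kinase known for its rise on fasting, and expression of Pdk4 and Pdp1 has been described as depending on the muscle clock.

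The assay was ATAC-seq, which tags open DNA with adapters by means of a transposase, on nuclei from gastrocnemius, a calf muscle, of mice aged 6 months. The series held 8 libraries of 50000 nuclei each, 4 labelled vehicle and 4 labelled iMSBmal1KO, which had received tamoxifen. All 8 carried the genotype Cre+:iMSBmal1 fl/fl, so Cre and floxed Bmal1 were present in the vehicle group too. An inducible, muscle-specific loss of Bmal1, a transcription factor of the circadian clock, was compared with vehicle, and tamoxifen itself and the loss of Bmal1 cannot be told apart. A pair of whole muscles was homogenised per preparation. The labels used here give neither the promoter that drives Cre, nor the sex, nor the interval after tamoxifen, nor the hour of collection. They do not say that the replicates came from separate mice, so p-values measure the spread between these samples, which may be technical.

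The libraries held 4.31 to 29.5 M read equivalents (M, units of 1e+06), that is, deposited signal divided by the value of a single read in that library. Vehicle 4 stood apart, with the 4.31 M, a mitochondrial share of 16.5% against 1.11% to 5.51% in the other 7 libraries, and a correlation with them of 0.80 to 0.85 against 0.90 to 0.94 among those 7. Summed signal at Bmal1, listed as Arntl, was 1942 to 2688 in the vehicle and 3023 to 3421 in the iMSBmal1KO libraries; accessibility summed over a gene does not check the deletion of part of it. Promoters of 8 of 8 muscle fibre markers were above 0 in every library, and their summed signal was 6600.5 to 11141 in vehicle and 8894 to 10799 in iMSBmal1KO. Markers of other cells also had signal. Fibro-adipogenic promoters summed to 386 to 596 in vehicle and 429 to 600.4 in iMSBmal1KO, and Schwann cell promoters to 175 to 365 and 327 to 447. The macrophage list, with promoter regions for 2 of its 4 genes, was the lowest at 3.13 to 12.5 over all libraries. All 9 marker lists overlapped between the groups. A lower share of nuclei of a cell type and lower accessibility per nucleus cannot be told apart in whole muscle.

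Promoter sequences are shown for 4 members, chosen for a motif or for a place at the ends of the range of signal density. Pdk2 and Pdp2 are the members with a window that holds CACGTG, the E-box bound by clock factors such as Bmal1. Pdk4 had the densest and Pdk3 the sparsest signal. The letters come from RefSeq promoter windows of GRCm38.p6, which run from 250 bases before to 50 after the start. A window existed for 8 of the 9 members, Pdp1 being the one not matched. Pdk1 and Pdk2 each had a further window, that of Pdk2 at chr11:95040826-95041125, and neither further window held an E-box. Each line gives the 250 bases before the start, 5′ to 3′ on the gene's strand, with an E-box in capitals. The stretches are chr11:95041372-95041621 (minus) for Pdk2, chr8:104591222-104591471 (plus) for Pdp2, chr6:5496279-5496528 (minus) for Pdk4 and chrX:93832151-93832400 (minus) for Pdk3.
Pdk2: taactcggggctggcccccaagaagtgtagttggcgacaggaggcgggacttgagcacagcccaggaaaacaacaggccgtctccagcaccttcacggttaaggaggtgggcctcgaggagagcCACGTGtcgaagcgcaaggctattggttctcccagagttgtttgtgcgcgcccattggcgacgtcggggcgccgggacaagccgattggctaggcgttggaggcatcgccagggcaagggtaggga
Pdp2: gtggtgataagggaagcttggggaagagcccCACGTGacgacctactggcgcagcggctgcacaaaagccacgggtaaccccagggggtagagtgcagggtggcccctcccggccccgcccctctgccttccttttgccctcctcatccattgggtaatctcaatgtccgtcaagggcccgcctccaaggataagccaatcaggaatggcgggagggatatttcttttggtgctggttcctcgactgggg
Pdk4: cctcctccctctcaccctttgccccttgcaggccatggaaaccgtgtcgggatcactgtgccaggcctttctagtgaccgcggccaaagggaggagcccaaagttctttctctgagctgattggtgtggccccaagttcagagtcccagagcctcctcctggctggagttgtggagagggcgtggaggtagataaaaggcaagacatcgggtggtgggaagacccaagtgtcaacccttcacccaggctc
Pdk3: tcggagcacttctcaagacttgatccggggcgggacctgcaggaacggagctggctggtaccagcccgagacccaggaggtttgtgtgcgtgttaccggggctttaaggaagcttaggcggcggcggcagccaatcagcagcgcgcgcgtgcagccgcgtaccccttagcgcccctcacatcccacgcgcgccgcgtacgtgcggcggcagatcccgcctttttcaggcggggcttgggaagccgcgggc

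The E-box of Pdk2 began 126 bases before the start, at 95041492 to 95041497 on chromosome 11, inside the most accessible Pdk2 region. That of Pdp2 began 219 bases before the start, at 104591253 to 104591258 on chromosome 8, and lay across the listed start of the most accessible Pdp2 region, 104591255. CACGTG, read on both strands (it is its own reverse complement), was in 7.15% of all 32851 windows of 300 bases. The forkhead-type GTAAACA was in 3.65% of windows, the ROR-type TAGGTCA in 2.61% and the estrogen-related-receptor-type TCAAGGTCA in 0.423%, counting both strands, and none of the 3 was in a member's window. Each motif was searched separately, and the ROR-type and receptor-type letters share the end AGGTCA. A match describes letters in a window, and its absence says nothing of a factor. The Pdk3 window was the richest of these 4 in bases G and C, 68.0%, with 35 CpG pairs (more than 93.0% of all windows), and the Pdk4 window had 60.7% and 12 pairs; the median window had 52.7% and 7.

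Of the 80 regions, 30 were annotated to a transcription start, 23 to introns, 9 to 3' UTR exons, 8 to coding exons, 7 to transcript ends and 3 to 5' UTR exons. Pdk4 held 20 of them, Dlat 13, Pdk2 12, Pdk1 9, Pdp2 8, Pdk3 and Pdp1 6 each, and Pdha1 and Pdhb 3 each. Neighbouring regions are not independent, since 42 of the 80 abutted another region. Coordinates are those of the table, which names no build, and the listed end is the base after the last. At 8 of the 9 members the table's transcript bounds lay within 51 bp of RefSeq GRCm38.p6, and Pdhb was the exception.

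In 8 of the 9 genes the most accessible region, which covered the start, held over 80% of the gene's signal on average over libraries. Its mean share was 97.9% for Pdhb, 97.4% for Pdha1, 93.0% for Pdk1, 91.0% for Pdp1, 89.4% for Pdk2, 85.6% for Pdp2, 83.1% for Pdk4 and 82.4% for Dlat. Pdk3 was the exception at 57.2%, with a range of 22.2% to 79.2% over libraries. The lowest share in a single library was 76.2% for Pdk4 and 79.4% for Dlat.

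Levels were compared between genes as signal per kb of that most accessible region, averaged over the 8 libraries. Pdk4 had 2026 per kb, Pdp1 1939, Pdhb 1522, Pdk2 1335, Pdk1 1201, Dlat 686, Pdha1 644, Pdp2 493 and Pdk3 102. Among the most accessible regions of all annotated genes, with a median of 187 per kb, Pdk4 stood at the 99.1st percentile, Pdp1 at the 98.8th, Pdhb at the 96.9th, Pdk2 at the 95.1st and Pdk1 at the 93.2nd. Dlat was at the 78.7th, Pdha1 at the 76.8th, Pdp2 at the 69.5th and Pdk3 at the 39.6th. Most neighbours in this order had ranges over libraries that overlapped, though within the same library the order was often kept. Pdk4 was above Pdp1 in 4 of 8 libraries, Dlat above Pdha1 in 5 and Pdk2 above Pdk1 in 6. Pdhb was above Pdk2 and Pdha1 above Pdp2 in 7 of 8. Pdp1 was above Pdhb and Pdk1 above Dlat in 8 of 8, again with ranges that overlapped. The one neighbouring pair whose ranges were separate was Pdp2 (357 to 610.4) and Pdk3 (46.7 to 157). Within families the density of Pdk4 was 1.56 ± 0.123 times that of Pdk2 in the vehicle group and 1.49 ± 0.204 times in the iMSBmal1KO group (SD, n = 4 each). For Pdp1 over Pdp2 the ratio was 4.01 ± 0.606 and 4.02 ± 0.919 (SD, n = 4 each), so neither ratio moved by more than its spread. The order of Pdk4 and Pdk2 depends on division by length, 782 bp for the Pdk4 region and 1333 bp for that of Pdk2. Without it, Pdk2 promoter sums were the higher, at 1926 ± 316 in vehicle and 1993 ± 222 in iMSBmal1KO. Those of Pdk4 were 1654 ± 317 and 1583 ± 119 (SD, n = 4 each).

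**Figure D1:**
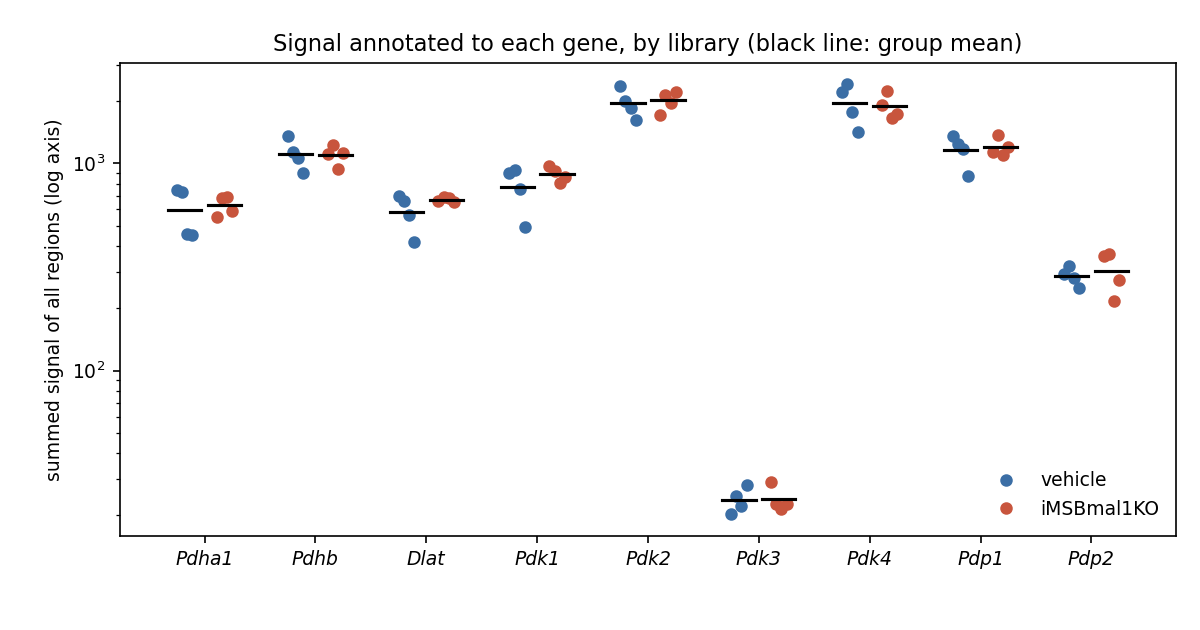
Summed signal of all regions annotated to each of the 9 genes, on a log axis, with 1 point per library (4 vehicle, 4 iMSBmal1KO) and a black line at the group mean. The groups overlap for every gene, and Pdk3 (20.3 to 29.1) lies far below the others.

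None of the member regions differed between the groups at the threshold. Of the 80, 35 passed the filter on low signal, and 0 of 35 had an adjusted p under 0.05 in limma-trend with Benjamini-Hochberg adjustment over 124901 regions, where 0.0881% of all tested regions did. At an unadjusted p under 0.05 the count was 0 of 35 against 9.22% of all, and 0 of 35 had groups that did not overlap against 5.48% of all. The smallest unadjusted p was 0.170 and the smallest adjusted p 0.643, and limma-voom on read equivalents also gave 0 by either rule. Log2 changes, here and below iMSBmal1KO minus vehicle on log2(signal + 1), ran from -0.52 to 0.64 with a median of 0.089 against 0.12 for all tested regions. Of the 35, 25 were above 0, as were 62.0% of all tested regions. The 45 regions that did not pass the filter had mean signals of at most 9.66. By section, 0 of 17 tested start regions, 0 of 10 intronic, 0 of 4 coding, 0 of 2 in 3' UTR exons and 0 of 2 at transcript ends were called.

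Summed over each whole gene, again 0 of 9 passed an adjusted p of 0.05 (0.130% of 22224 genes did) and 0 of 9 an unadjusted p of 0.05 (9.48% did); limma-voom called 0. Over promoters, taken as regions within 1000 bp of an annotated start, 0 of 9 passed the adjusted threshold (0.0790% of 17720 promoters did) and 0 of 9 the unadjusted (10.1% did), with limma-voom again at 0. Adjusted p-values in limma-trend were 0.622 to 0.995 for gene sums and 0.582 to 0.991 for promoter sums. The median log2 change was 0.054 for the 9 gene sums against 0.11 for all genes, and 0.065 for the 9 promoter sums against 0.15 for all. A missed threshold does not show equal accessibility, so 95% intervals are given for each gene, for these libraries at the deposited scaling. Over the 9 gene sums they reach from a fold of 0.678 to 1.54, and over the 9 promoter sums from 0.762 to 2.06. These intervals are not adjusted for the number of genes and do not cover the choice of scaling. The highest promoter bound belongs to Pdk3, and without it the promoter intervals end at 1.59. Exact two-sided permutation tests of each gene sum gave p of 0.314 to 0.971, where 70 arrangements allow 0.0286 at the least.

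**Figure D2:**
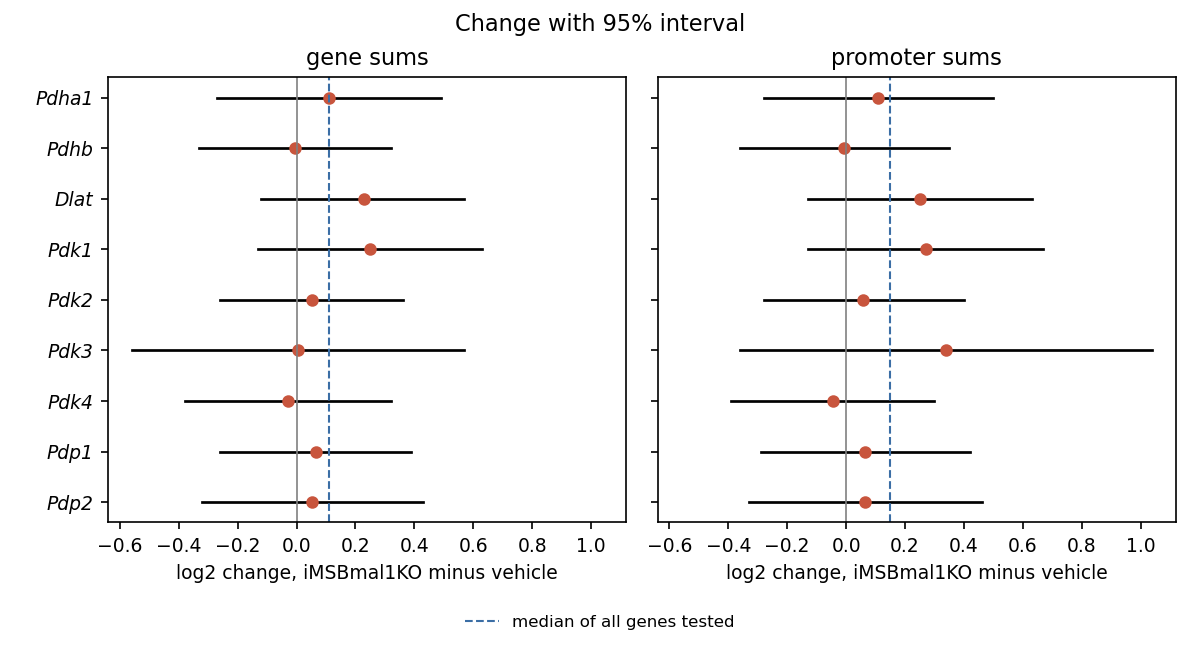
Log2 change (iMSBmal1KO minus vehicle) of gene sums, left, and promoter sums, right, with 95% intervals from limma-trend for the 9 genes; the dashed line is the median of all genes tested (0.11 and 0.15). Every interval crosses 0, and the widest is that of the Pdk3 promoter.

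Pdha1 and Pdhb encode the alpha and beta subunits of the decarboxylase that starts the reaction. The most accessible Pdha1 region (chromosome X, 160137737 to 160138663, transcription start) had signals of 728, 712, 440.4 and 450.2 in vehicle 1 to 4 and 532, 659, 674 and 572 in iMSBmal1KO 1 to 4. The vehicle libraries split into a high and a low pair, and all 4 iMSBmal1KO values fell between them. The means were 583 ± 159 and 609 ± 68.5 (SD, n = 4 each), and the log2 change came to 0.098 ± 0.20 (SE; adjusted p = 0.888 in limma-trend). The share of nuclear reads on chromosome X, where Pdha1 and Pdk3 lie, was 1.09% to 1.28% over the libraries. That on chromosome Y was 0.0843% to 0.211%. Levels of these X-linked genes were not corrected for copy number. A small region just upstream (160138663 to 160138762) had the smallest p of the members. It rested on 9.59, 10.3, 12.1 and 3.13 in vehicle and 15.8, 18.4, 9.54 and 10.0 in iMSBmal1KO, that is, on 1 read in vehicle 4. Its log2 change was 0.64 ± 0.45 (SE), with an adjusted p of 0.643 in limma-trend. Without vehicle 4 the change was 0.27, and with abutting regions merged it was 0.11 (adjusted p of 0.483 to 0.918 over all settings).

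At the start of Pdhb (chromosome 14, 8172859 to 8173571) the signals were 1327, 1125, 1030 and 879 in vehicle and 1078, 1206, 922 and 1103 in iMSBmal1KO. The vehicle values enclosed all those of iMSBmal1KO, and the log2 change was -0.0081 ± 0.17 (SE; adjusted p = 0.992 in limma-trend). Pdhb was the member with the smallest gene-sum change in either direction, -0.0061 with a 95% interval of -0.33 to 0.32.

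Dlat encodes the acetyltransferase core that passes the acetyl group to coenzyme A. Its start region (chromosome 9, 50659173 to 50659926) had 573, 552, 457 and 331 in vehicle and 526, 585, 567 and 543 in iMSBmal1KO. The iMSBmal1KO values were close together at 555 ± 26.2 and lay within or just above the vehicle range, 478 ± 110.3 (SD, n = 4 each). The log2 change was 0.25 ± 0.20 (SE; adjusted p = 0.681 in limma-trend). Vehicle 4 was the low value, and the Dlat gene sum moved from 0.23 to 0.074 on the log2 scale when that library was left out. A region further upstream (50660636 to 50660705) had means of 15.4 ± 6.92 and 19.1 ± 4.50 (SD, n = 4 each), and its adjusted p in limma-trend was 0.731. Its log2 change of 0.39 came to 0.044 without vehicle 4.

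Among the kinases, Pdk1, known for its rise in low oxygen, had the largest gene-sum change. Its start region (chromosome 2, 71872906 to 71873551) had 852, 868, 707 and 422 in vehicle and 931, 877, 753 and 790.3 in iMSBmal1KO. All but vehicle 4 lay between 707 and 931. The gene sum averaged 769 ± 200.1 for the vehicle and 889.8 ± 75.9 for the iMSBmal1KO group (SD, n = 4 each). On the log2 scale this was a change of 0.25 ± 0.18 (SE; adjusted p = 0.622 in limma-trend), which came to 0.050 without vehicle 4. An intronic region (71898473 to 71898801, intron 8) had 14.5 ± 10.5 and 17.6 ± 5.71 (SD, n = 4 each), with an adjusted p of 0.733 in limma-trend. Its log2 change of 0.43 ran from 0.14 without vehicle 4 to 0.83 without vehicle 2.

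Pdk2, the most widely expressed of the kinases, had the longest start region of the members, 1333 bp (chromosome 11, 95040406 to 95041739), which holds the E-box shown above. Its signals were 2156, 1793, 1647 and 1441 in vehicle and 1504, 1928, 1756 and 2007 in iMSBmal1KO. The vehicle range enclosed that of iMSBmal1KO, and the log2 change was 0.039 ± 0.17 (SE), with a 95% interval of 0.805 to 1.31 in fold and an adjusted p of 0.951 in limma-trend. Further regions of Pdk2 were small. One upstream of the start (95042292 to 95042410) had 60.4 ± 11.3 and 77.3 ± 17.4 (SD, n = 4 each; adjusted p = 0.650 in limma-trend). In intron 1 (95040291 to 95040355) the means were 10.2 ± 2.70 and 13.6 ± 5.74 (SD, n = 4 each; adjusted p = 0.782 in limma-trend). A region of intron 4 (95030697 to 95030908) went the other way, with 13.0 ± 5.95 and 8.68 ± 2.97 (SD, n = 4 each; adjusted p = 0.702 in limma-trend). The log2 changes of these 3 regions, 0.35, 0.34 and -0.50, were 0.20, 0.15 and -0.24 without vehicle 4, and that of the intron 1 region was 0.11 without iMSBmal1KO 4.

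Pdk3 had little accessible chromatin in this muscle. Its start region (chromosome X, 93832114 to 93832248) had 11.7, 19.5, 12.1 and 6.25 in vehicle and 21.0, 12.5, 10.7 and 15.1 in iMSBmal1KO. These values stood for 2 reads in vehicle 4 to 49 in iMSBmal1KO 1, so depth limits what can be seen here more than at any other member. The log2 change was 0.29 ± 0.38 (SE), with an adjusted p of 0.806 in limma-trend and an interval of 0.708 to 2.13 in fold. The whole-gene sum changed by 0.0066, but by 0.29 with only regions past the filter, and the promoter sum changed by 0.34. Regions beyond 1000 bp of a start summed to 18.8 in vehicle 4 and to 1.03 to 6.35 in the other libraries. Single libraries moved the change of the start region widely. It was 0.031 without vehicle 4, 0.12 without iMSBmal1KO 1 and 0.53 without vehicle 2. Adjusted p in limma-trend ran from 0.561 to 0.994 over the libraries and settings tried.

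Pdk4, the fasting-induced kinase, had the densest start region of the members (chromosome 6, 5496073 to 5496855). Its signals were 1936, 1835, 1449 and 1251 in vehicle and 1550.3, 1713, 1418 and 1520.4 in iMSBmal1KO. The vehicle libraries enclosed all 4 iMSBmal1KO libraries, and the means were 1618 ± 322 and 1550.4 ± 122 (SD, n = 4 each). The log2 change was -0.042 ± 0.17 (SE), the adjusted p 0.948 in limma-trend and the 95% interval 0.758 to 1.24 in fold. It rested on 400 reads in the shallowest and 3622 in the deepest library. The adjoining coding part of exon 1 (5496005 to 5496073) had 36.7 ± 10.9 and 32.6 ± 3.45 (SD, n = 4 each; adjusted p = 0.893 in limma-trend).

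The body of Pdk4 varied more between libraries than between groups. It held 18 regions beyond 1000 bp of a start, 9 in exons, 8 in introns and 1 at the transcript end. Their summed signal was 253, 542, 262 and 134 in vehicle 1 to 4 and 326, 507, 200.4 and 181 in iMSBmal1KO 1 to 4. The library numbered 2 was the highest in each group, at 2.51 times the mean of the other vehicle libraries and 2.15 times that of the other iMSBmal1KO libraries; over all genes the median of these ratios was 1.00 and 1.01. Vehicle 2 was the highest vehicle library in 16 of the 18 regions and iMSBmal1KO 2 the highest of its group in 18 of 18. Of these 18, 10 passed the filter, and in all 10 of those both libraries were the highest of their groups. Over all tested regions of gene bodies, a base to set beside the 10, the library numbered 2 was the highest in 30.9% for vehicle and 28.3% for iMSBmal1KO. In 9.58% both were the highest of their groups. The 10 are neighbouring regions of 1 gene and not separate observations. Of 13805 genes with a tested body, 3, Pdk4 included, had both ratios at or above the lower of the pair seen here (0.0217%). At the start region vehicle 1 was above vehicle 2, while iMSBmal1KO 2 was the highest of its group there too. This pattern was noticed after the values were seen and is given as a description. Vehicle 2 and iMSBmal1KO 2 had 13.0 and 16.8 M read equivalents and mitochondrial shares of 2.26% and 1.40%, within the range of the other libraries; the part of depth or of library quality in it was not tested.

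Between the groups the Pdk4 body changed by 0.077 ± 0.44 on the log2 scale (SE; adjusted p = 0.969 in limma-trend), and by 0.13 without both libraries numbered 2 (adjusted p = 0.905). Of the 5 members with a tested gene body, 0 were called, against 0.188% of all gene bodies. The most positive Pdk4 region was in intron 9 (5486870 to 5486967), with 19.2, 23.6, 18.4 and 3.13 in vehicle and 31.7, 34.3, 8.35 and 16.3 in iMSBmal1KO. The most negative was in intron 10 (5486388 to 5486476), with 16.0, 52.4, 22.9 and 37.5 in vehicle and 28.7, 32.6, 16.7 and 10.0 in iMSBmal1KO. These 2 regions lie within 1 kb of each other and their log2 changes were 0.56 ± 0.57 and -0.52 ± 0.40 (SE), with adjusted p of 0.753 and 0.667 in limma-trend. Both intervals crossed 0. The first ran from -0.035 without vehicle 4 to 0.94 without iMSBmal1KO 3, and the second from -0.80 without vehicle 1 to -0.21 without iMSBmal1KO 4.

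**Figure D3:**
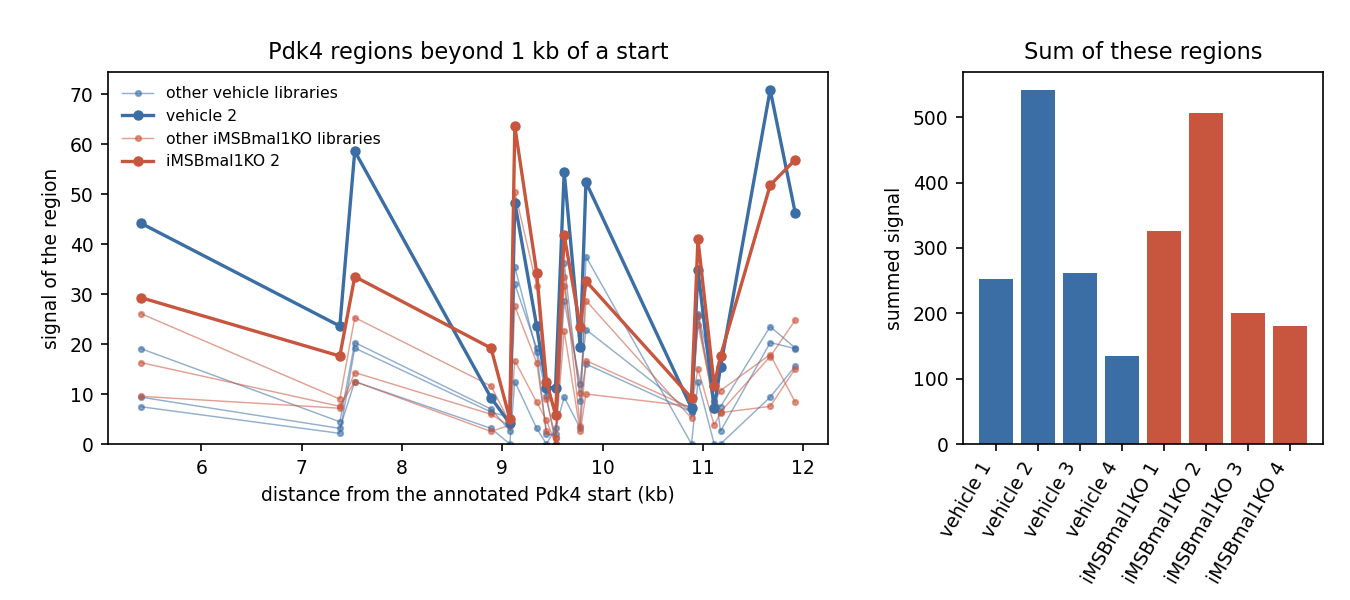
Left, signal in each of the 18 Pdk4 regions beyond 1000 bp of a start against distance from the annotated start in kb, 1 line per library (lines only join the points of a library); right, their sum per library. Vehicle 2 (542) and iMSBmal1KO 2 (507) are the highest of their groups, and the other libraries lie between 134 and 326.

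Pdp1, the calcium-stimulated phosphatase of muscle, had a start region nearly as dense as that of Pdk4 (chromosome 4, 11966374 to 11966928). Its signals were 1262, 1115, 1052 and 816 in vehicle and 1005, 1219, 1025 and 1099 in iMSBmal1KO. The groups overlapped, with means of 1061 ± 186 and 1087 ± 96.9 (SD, n = 4 each) and a log2 change of 0.048 ± 0.17 (SE; adjusted p = 0.941 in limma-trend). The 95% interval was 0.804 to 1.33 in fold. The only other tested region of Pdp1, at a start within the gene (11965773 to 11965925), had 82.1 ± 29.2 and 97.2 ± 36.8 (SD, n = 4 each; adjusted p = 0.815 in limma-trend).

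Pdp2, the phosphatase that does not need calcium, was less accessible. Its start region (chromosome 8, 104591255 to 104591766) had 241, 270.2, 243 and 222 in vehicle and 305, 312, 183 and 238 in iMSBmal1KO. The vehicle libraries lay close together at 244 ± 19.9, and the iMSBmal1KO libraries spread to both sides of them at 259 ± 61.1 (SD, n = 4 each). The log2 change was 0.060 ± 0.21 (SE; adjusted p = 0.938 in limma-trend).

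The library vehicle 4 was low at most members. It was the lowest vehicle library in 9 of 9 member promoter sums, as it was for the promoter sums of 58.7% of all genes, and in 8 of 9 gene sums, against 53.6% of all genes. Its promoter signal was 0.517 to 0.869 times the mean of the other vehicle libraries, with a median of 0.705 for the members and 0.776 for all genes. With vehicle 4 left out, 0 of 9 gene sums and 0 of 9 promoter sums were called. The gene sums then lay between -0.17 for Pdk4 and 0.087 for Pdk3, and those of Pdk2 (-0.038), Pdp1 (-0.066), Pdp2 (-0.0079) and Pdha1 (-0.0053) turned from above to below 0.

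**Figure D4:**
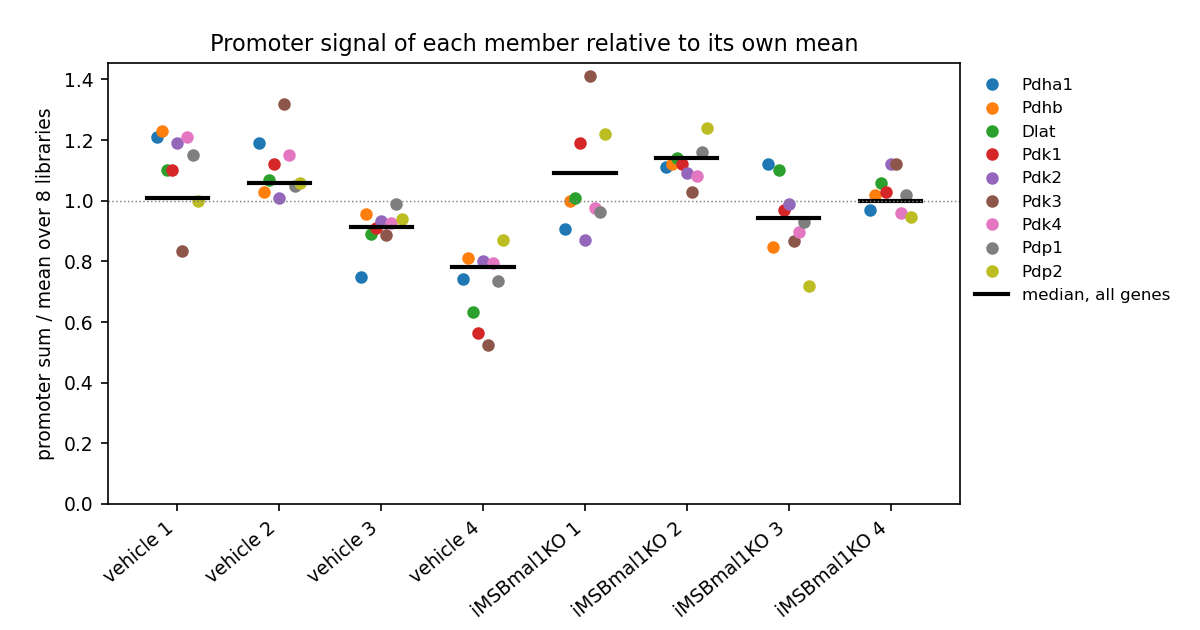
Promoter sum of each of the 9 genes divided by its own mean over the 8 libraries, by library, with a black line at the median of all genes in that library. In vehicle 4 the members lie between 0.525 and 0.869, below 1 like the median of all genes (0.781).

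The genes whose log2 sums followed Pdk4 most closely over the 8 libraries, out of 22224, were Ube2d3 (Pearson r = 0.991), Snapc1 (0.990), Ift27 (0.976), Myl12a (0.975) and Fzd3 (0.973); the median gene had 0.442. For Pdha1 they were 9630010A21Rik (0.984), Zfyve16 (0.977), Gm50308 (0.975), Nxpe3 (0.970) and Rn7sk (0.969), with a median gene at 0.334. These values share the same 8 libraries and their depth, among them the low vehicle 4. Between the members, Pdk4 had an r of 0.864 with Pdp1, 0.841 with Pdhb and down to 0.605 with Pdk2. The exception was Pdk3 at -0.307, whose gene sums held 9 to 68 read equivalents per library.

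The other genes of the pathway were taken as 24 genes in 4 lists. Of their 24 gene sums 0 were called, where 0.130% of all gene sums were. An unadjusted p under 0.05 was found for 2 of the 24, both higher in iMSBmal1KO, against 9.48% of all gene sums, so this share is near the background. Limma-trend called 0 of their 269 tested regions (0.0881% of all were called), and 15 of the 269 had an unadjusted p under 0.05 (8 of them higher) against 9.22% of all tested regions, a share below the background. Their median gene-sum change was 0.057, against 0.11 for all genes. Among 5 genes of the complex and of lipoylation, the attachment of the lipoate that the complex works with, the median was 0.26. With the smallest p of the lists, Dld, the dihydrolipoamide dehydrogenase that reoxidises the lipoate, had gene sums of 257, 300.0, 236 and 241 in vehicle and 331, 350.4, 321 and 301 in iMSBmal1KO. Its gene sums were separate between the groups by a narrow gap, with a log2 change of 0.34 ± 0.15 (SE) and an adjusted p of 0.517 in limma-trend. Its promoter sums overlapped between the groups, at 257 ± 29.5 and 322 ± 21.0 (SD, n = 4 each). The share of all gene sums with separate groups was not counted. Lias, which makes the lipoate, had 390.2 ± 86.8 and 508 ± 102 (SD, n = 4 each; adjusted p = 0.526 in limma-trend), with overlapping groups. The lowest library for Lias was vehicle 4, at 297.

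The list of 10 genes for pyruvate transport and fate had a median log2 change of -0.0080, with sums from -0.16 to 0.30. Within it, Pkm, the muscle pyruvate kinase, went from 2661 ± 590.2 to 3222 ± 349 (SD, n = 4 each; adjusted p = 0.552 in limma-trend). Gpt, which interconverts alanine and pyruvate, went from 1735 ± 318 to 2127 ± 379 (SD, n = 4 each; adjusted p = 0.561 in limma-trend). Vehicle 4 was the lowest library for Pkm, at 1845, and for Gpt, at 1398. The 8 described regulators of Pdk4, among them Ppard, Foxo1 and Esrra, had a median of -0.026 and a range of -0.18 to 0.11. The regulator of the phosphatase, Pdpr, changed by 0.078 (adjusted p = 0.876 in limma-trend). None of these sums passed the threshold.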

How the data were processed

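The authors deposited 1 table, which lists a signal for every region and library beside the annotated gene. Per the submitters' processing notes, which give no role or order, Partek, Bowtie2, MACS2 and DESeq2 and the builds mm10 and GRCm39 were named; versions, duplicate removal and the shift for the transposase are not given in the sources used here. In each library 98.4% to 99.8% of non-zero signal values were whole multiples of 1 step (0.428 to 3.13) within 0.02, so the deposited signal was taken as reads divided by a factor per library; whole reads are not claimed for every value, and counting error in these read equivalents covers no duplicate molecules.

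Regions with at least 0.762 read equivalents per M in 4 libraries and 15 in all were tested (124901), with limma-trend (limma 3.58.1, R 4.3.3) and robust empirical Bayes on log2(signal + 1), group as the only term, all 8 libraries and Benjamini-Hochberg adjustment over all features at 0.05. The same fit ran on signal summed per gene, per promoter and per gene body. The fit was tested on simulated data. Tables and figures used Python 3.11.15, pandas 2.3.3 and matplotlib 3.10.9. Named were the highest region of each member, the 10 tested member regions with the smallest p, the extremes of genes with 10 or more tested regions, the 5 genes most like Pdk4 and Pdha1, and the 4 pathway genes with the smallest p. Other regions (Pdp1 at 11965773, Pdk4 exon 1) and the Pdk4 body were chosen after values were seen. The members and lists were chosen with earlier results of these data known. Alternatives covered scaling, pseudocount, filter, replicate block, merging, limma-voom, promoter window and each library left out.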

Additional observations from a re-analysis of the deposited data

Results flagged for a closer look

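Of 72 groups of 4 libraries tried, 2 held a library far from the others, and chance flags about 1 in 20 groups, or 3.60 here. The Pdk3 gene sum of iMSBmal1KO 1 was 29.1, while the other iMSBmal1KO libraries lay between 21.5 and 22.6. The gap to the nearest was 0.855 of the range of the group. In the Pdk2 region of intron 4 (from 95030697), vehicle 4 had 21.9, which stood for 7 reads. Vehicle 1 to 3 lay between 9.59 and 10.3, and the gap was 0.945 of the group's range.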

How the results depend on the processing

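No member region, gene sum or promoter sum passed the threshold under any of the 22, 20 and 21 alternatives run for them; the smallest adjusted p were 0.362, 0.312 and 0.273. Over all regions the count past the threshold was 110 as reported, 58 with trimmed-mean factors, 218 with total reads outside the mitochondrial chromosome, 342 with abundance-dependent loess, 342 with limma-voom, 195 without the filter, 36 at a threshold of 0.01, 33 without both libraries numbered 2 (chosen after seeing the data) and 34 to 326 with 1 library left out.

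Signs near 0 turned with the scaling. With total reads the log2 changes became, for the highest regions, Pdk2 -0.090, Pdp1 -0.080, Pdp2 -0.068 and Pdha1 -0.030; for gene sums, Pdk2 -0.078, Pdk3 -0.12, Pdp1 -0.063, Pdp2 -0.073 and Pdha1 -0.016; for promoter sums, Pdk2 -0.072, Pdp1 -0.064, Pdp2 -0.063 and Pdha1 -0.016; and for the Pdk4 body -0.051. With loess they became, for highest regions, Pdk2 -0.042, Pdp1 -0.051, Pdp2 -0.089 and Pdha1 -0.022; for gene sums, Pdk2 -0.015, Pdp1 -0.037, Pdp2 -0.12 and Pdha1 -0.033; for promoter sums, Pdp1 -0.037, Pdp2 -0.16 and Pdha1 -0.057. The highest region, gene sum and promoter sum of Pdhb rose above 0 with factors from autosomes (0.012, 0.014, 0.014), median-of-ratios factors (0.013, 0.015, 0.015) and trimmed-mean factors (0.047, 0.049, 0.049). With the last, those of Pdk4 became 0.013, 0.025 and 0.0089. Apart from loess, each of these scalings multiplied a whole library by 1 factor, which moves the changes of all features by a similar amount. With total reads the highest region of Pdk1 went from 0.28 to 0.16 and that of Dlat from 0.25 to 0.12. Why the scalings differ was not tested.

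With 1 library left out, gene sums ran from -0.0053 to 0.23 for Pdha1, -0.10 to 0.094 for Pdhb, -0.038 to 0.14 for Pdk2, -0.087 to 0.087 for Pdk3, -0.17 to 0.081 for Pdk4, -0.066 to 0.15 for Pdp1 and -0.046 to 0.21 for Pdp2. Promoter sums ran from -0.0053 to 0.23 for Pdha1, -0.10 to 0.094 for Pdhb, -0.037 to 0.15 for Pdk2, -0.16 to 0.044 for Pdk4, -0.067 to 0.15 for Pdp1 and -0.036 to 0.23 for Pdp2. Highest regions ran from -0.022 to 0.22 for Pdha1, -0.11 to 0.092 for Pdhb, -0.052 to 0.14 for Pdk2, -0.16 to 0.051 for Pdk4, -0.072 to 0.14 for Pdp1 and -0.039 to 0.22 for Pdp2. The Pdk4 region in intron 9 ran from -0.035 to 0.94 and the Pdk4 body from -0.25 to 0.42.

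The replicate block called 100 regions in all and 0 member regions, gene sums or promoter sums. The labels share replicate numbers but do not say that these mark pairs. Over single tested regions, same-numbered libraries had correlations of deviations of -0.06 to 0.14, and 1 of 8 libraries correlated best with its own number. Group was kept as the only term. This check was made on single regions, so it cannot decide whether the numbers mark pairs. Over all genes the block called 116 gene sums against 29, and 116 promoter sums against 14.

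The planned count models were not run, since whole reads were not recovered for all values. Depth limits Pdk3 most, at 2 reads in vehicle 4. Without the filter, all member regions entered the fit and none was called.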

Other observations

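Intergenic regions within 50 kb of the highest region of a member were looked at after the other results were seen. There were 86, of which 30 could be tested, and limma-trend called 0 and gave 2 an unadjusted p under 0.05, where 9.22% of all tested regions had one. Both lay near Pdp1 on chromosome 4. The region from 11918532 to 11918691 had 4.26, 16.4, 4.45 and 6.25 in vehicle and 21.0, 20.1, 21.5 and 15.1 in iMSBmal1KO. Those groups overlapped through vehicle 2, and the log2 change was 1.38 ± 0.41 (SE), with an adjusted p of 0.349 in limma-trend. The low vehicle values rested on few reads, as 1 read stood for 1.07 in vehicle 1 and for 3.13 in vehicle 4. The region from 11929552 to 11929692 had 34.3 ± 21.0 and 56.9 ± 12.8 (SD, n = 4 each; adjusted p = 0.511 in limma-trend). The 17 tested intergenic regions near Pdk4 ran from -0.88 to 0.63 on the log2 scale, with 0 under an unadjusted p of 0.05 and a smallest adjusted p of 0.586 in limma-trend.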
